A study of Homo sapiens with 10 samples.

Results

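The kallikrein-related peptidases KLK5 to KLK14 are secreted serine proteases of stratified epithelia. Their 10 genes were taken by name from a table of read counts for 58735 genes, and all 10 were present. RNA was sequenced from A253, a human line of salivary gland squamous cell carcinoma, to compare control cells with cells edited in DUSP1, a phosphatase that inactivates MAP kinases. The control group (2 libraries) carried Cas9 and a guide RNA to dTomato, the gene of a fluorescent protein that human cells lack. Cl1 (clone 1, 2 libraries) and Cl10 (clone 10, 2 libraries) each grew from a single cell after editing with DUSP1 guides. By the study's account they lack exon 2 of that gene on 1 allele, and DUSP1 protein was not seen in either clone. All 3 groups carried lentiviral Cas9 and grew in DMEM with serum. Each edited group is a single clone, and the labels do not call the control cells a clone. A difference between groups may therefore belong to the clone as well as to the edit, and these cannot be told apart. Nothing in the labels says that the 2 libraries of a group came from separate cultures, so p-values measure only the spread between these libraries, which may be technical.

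Library totals ran from 47016495 to 70986593 counts, and values below are normalized counts, scaled by TMM to the mean library total, unless raw counts are named. DUSP1 (ENSG00000120129) had 751.2 and 637.3 normalized counts in the control libraries, 306.5 and 348.4 in Cl1 and 494.4 and 413.6 in Cl10, so that all 4 clone libraries lay below both controls. The fall passed the test described below in Cl1 (log2 fold change -1.07, edgeR adjusted p = 0.000292) and in Cl10 (-0.59, edgeR adjusted p = 0.0113), where it did not pass without Cl10 replicate 2 (-0.48, edgeR adjusted p = 0.0794). All 7 squamous or basal epithelial markers (KRT5, KRT14, KRT6A, TP63, CDH1, EPCAM and ITGA6) were at 1 CPM (counts scaled to the TMM-adjusted library total) or more in every library. Of 12 salivary acinar or ductal markers only KLK1 reached that level in both control libraries, none did in both libraries of either clone, and AMY1B, AMY1C, HTN1 and HTN3 were at 0 in all 6, so the labelled salivary origin did not show in these secretory genes. The summed level of the fibroblast markers was 44.4 to 50.3 CPM in the control, 46.1 to 48.0 in Cl1 and 29.8 to 31.4 in Cl10. Only COL1A1 and COL3A1 of these 7 genes reached 1 CPM, and LUM was at 0 throughout. That of the leukocyte markers was 6.9 to 7.96, 10.5 to 14.5 and 9.42 to 10.8 CPM, and of these 6 genes only CD14 reached 1 CPM in both libraries of a group. The endothelial markers summed to 2.74 to 4.45 CPM in the control, 5.73 to 7.64 in Cl1 and 3.19 to 4.14 in Cl10, and only VWF of the 4 reached 1 CPM, with KDR at 0 throughout. The part of these shifts in the results below was not tested.

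Kallikrein-related peptidases are made as inactive precursors and become active when another protease removes a short N-terminal peptide, so that they work in a cascade. In the outer epidermis KLK5, a trypsin-like enzyme that can activate itself, activates KLK7, KLK8 and KLK14, and KLK5, KLK7 and KLK14 cut the proteins that hold corneocytes together, which lets surface cells shed. LEKTI, the product of SPINK5, is the main inhibitor of this cascade, and its loss causes Netherton syndrome, in which the skin peels.

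The 10 genes lie side by side in the order of their numbers on chromosome 19 of hg38, within 140.943 kb from 50943303 to 51084245, and all are protein-coding and transcribed from the minus strand (GENCODE release 44). KLK5 (ENSG00000167754) runs from 50943303 to 50953093, KLK6 (ENSG00000167755) from 50958631 to 50969673 and KLK7 (ENSG00000169035) from 50976468 to 50984099. KLK8 (ENSG00000129455) spans 50996007 to 51002711, KLK9 (ENSG00000213022) 51002508 to 51009634 and KLK10 (ENSG00000129451) 51012739 to 51020175. KLK11 (ENSG00000167757) lies between 51022216 and 51028039 and KLK12 (ENSG00000186474) between 51029092 and 51035230. KLK13 (ENSG00000167759) extends from 51055626 to 51065114, and KLK14 (ENSG00000129437), the last of the row, from 51077495 to 51084245. The sequences immediately upstream of KLK5, KLK6 and KLK7 are shown because these neighbours had different patterns in the clones. Each is RefSeq sequence (GRCh38.p14, minus strand, 5′ to 3′) that ends at the base before the outermost GENCODE start of the gene, at chr19:50953094-50953288 for KLK5, chr19:50969674-50969841 for KLK6 and chr19:50984100-50984314 for KLK7.
KLK5 upstream region: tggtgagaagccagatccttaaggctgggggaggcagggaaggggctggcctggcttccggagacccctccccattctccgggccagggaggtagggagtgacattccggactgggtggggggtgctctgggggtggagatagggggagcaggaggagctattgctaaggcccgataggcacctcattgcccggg
KLK6 upstream region: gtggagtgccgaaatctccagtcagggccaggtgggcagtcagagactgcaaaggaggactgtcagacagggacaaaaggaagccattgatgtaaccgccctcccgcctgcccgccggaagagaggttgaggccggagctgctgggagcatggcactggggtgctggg
KLK7 upstream region: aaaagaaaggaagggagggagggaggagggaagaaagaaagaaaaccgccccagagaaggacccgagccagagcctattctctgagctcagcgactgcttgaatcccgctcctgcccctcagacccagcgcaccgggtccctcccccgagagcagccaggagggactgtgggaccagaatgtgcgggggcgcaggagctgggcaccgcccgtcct
None of the motifs searched occurs in these stretches, so no letters are in capitals. The motifs were TGANTCA, the site of AP-1, which MAP kinases activate, CATTGT, a core bound by SOX factors, and TATAAA, the TATA box, each on both strands. The RefSeq table held 16 start sites for 9 of the 10 genes and no entry for KLK8. In the 250 bases before these starts, TGANTCA and TATAAA did not occur, and CATTGT occurred at 2, namely at position -220 from a start of KLK10 and, on the other strand, at -56 from a start of KLK13. Of 35116 windows of the same length, 6.57% held TGANTCA, 9.29% CATTGT and 10.7% TATAAA. A match of letters is a description and not evidence of binding.

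KLK5 rose in Cl10 and fell in Cl1, and 6 of the 7 tested members had log2 fold changes below 0 in each clone. Not all of these falls passed the test, and the median over all genes tested was -0.01 in each clone. In Cl10, KLK5 was 5.58 times as high as in the control while KLK6, KLK7, KLK8 and KLK11 were lower, by 1.36 to 1.74 times. In Cl1, KLK5, KLK7, KLK10 and KLK11 were lower than in the control, by 1.46 to 2.4 times, and no member passed the test as higher. KLK7 and KLK11 were below the control in both clones. In bulk RNA, fewer cells that express a gene and less RNA per cell cannot be told apart.

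The table was fitted as a whole with edgeR's quasi-likelihood test and Benjamini-Hochberg adjustment over all genes, each comparison with its own 4 libraries. Passing the test means an adjusted p under 0.05, and a call needs in addition an absolute log2 fold change above 1. The filter on low counts kept 7 of the 10 members in every comparison and left out KLK9, KLK12 and KLK13. Of the 7 tested in Cl1 against the control, 4 passed as lower and 0 as higher, where 12.8% of 20153 genes passed as lower and 12.4% as higher. Calls among them were 2, both lower, beside 3.27% of all genes called lower and 4.27% called higher, and the 7 had a median log2 value of -0.72 against -0.01 over all genes tested. In Cl10 against the control, 1 passed as higher and 4 as lower, where 20.6% and 21.8% of 19875 genes did. The single call was KLK5, beside 5.98% of all genes called higher and 7.44% called lower, and the median of the 7 was -0.55 against -0.01. In Cl10 against Cl1, 3 passed as higher and 1 as lower, where 24.9% and 24.1% of 19818 genes did, with 1 call in each direction beside 4.47% and 6.28% of all genes. The comparisons with the control share its 2 libraries, so a chance deviation of a control library shifts both.

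KLK5, which starts the cascade in epidermis, had 87.93 and 85.18 normalized counts in the control, 47.35 and 47.3 in Cl1 and 432.6 and 524.4 in Cl10. The 3 groups did not overlap, with Cl1 lowest and Cl10 highest. The rise in Cl10 was a log2 fold change of 2.48 (standard error 0.161, 95% interval 2.10 to 2.86, edgeR adjusted p = 0.000103), and it passed in all 11 alternative fits with a p-value. In Cl1, KLK5 was at -0.86 (standard error 0.253, edgeR adjusted p = 0.0264). That fall rested on 55 and 41 raw counts and did not pass with DESeq2 (DESeq2 adjusted p = 0.106) or when either Cl1 library was left out (edgeR adjusted p = 0.118 and 0.0857). In each fit with a library left out, the lone library of its group was assumed to vary like the other group. Between the clones KLK5 was 10.1 times as high in Cl10 (log2 fold change 3.34, standard error 0.174, edgeR adjusted p = 2.72e-08).

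KLK7 is the chymotrypsin-like member that cuts corneodesmosomal proteins once KLK5 has activated it. It had 387.6 and 434.5 normalized counts in the control, 191.1 and 211.1 in Cl1, and 279.6 and 252.7 in Cl10. Both clones lay below the control without overlap, with Cl1 lower than Cl10. Relative to the control, KLK7 stood at a log2 fold change of -1.02 in Cl1 (standard error 0.16, edgeR adjusted p = 0.000698) and -0.61 in Cl10 (standard error 0.13, edgeR adjusted p = 0.00949). The value in Cl1 stood at the fold-change threshold, and without control replicate 2 or without Cl1 replicate 1 it was -0.93 and no longer a call. In Cl10 the fall did not pass without Cl10 replicate 2 (edgeR adjusted p = 0.0626). KLK7 was higher in Cl10 than in Cl1, by 0.41 on the log2 scale (standard error 0.146, edgeR adjusted p = 0.0328), which DESeq2 did not pass (DESeq2 adjusted p = 0.122), nor did edgeR without Cl1 replicate 1 or Cl10 replicate 1 (edgeR adjusted p = 0.116 and 0.199).

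KLK6, a trypsin-like protease also known from the nervous system, gave 1280.5 and 1274.5 normalized counts in the control, 1563.5 and 1458.3 in Cl1 and 687.7 and 761.6 in Cl10. The groups did not overlap, and here Cl1 was highest and Cl10 lowest, the reverse of KLK5. Relative to the control the log2 fold change in Cl10 was -0.80 (standard error 0.096, edgeR adjusted p = 0.000872) and passed in all 11 alternative fits. The value in Cl1, 0.26 (standard error 0.109, 95% interval 0.02 to 0.49), did not pass (edgeR adjusted p = 0.105). Between the clones KLK6 was lower in Cl10, at -1.06 (standard error 0.083, edgeR adjusted p = 6.23e-07). This value passed in every alternative fit, but it was -0.99 with library size only and -0.98 without Cl10 replicate 1, under the fold-change threshold of a call.

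**Figure D1:**
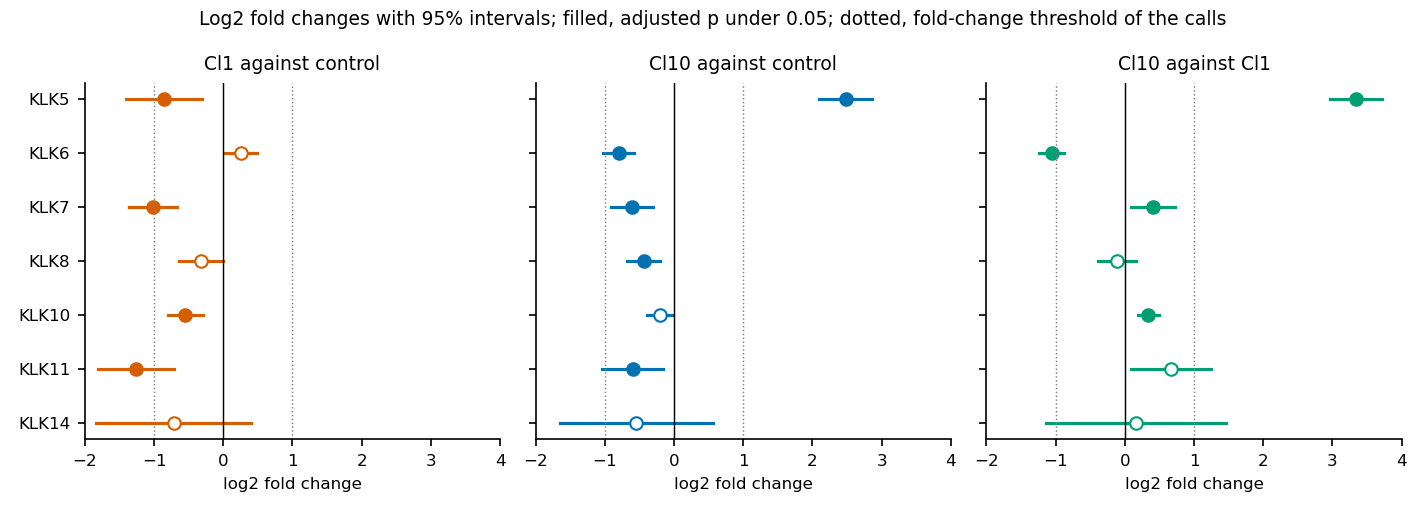
Log2 fold changes (x axis) of the 7 tested members in the 3 comparisons, with 95% intervals as bars, filled points where the adjusted p is under 0.05 and dotted lines at the fold-change threshold. KLK5 stands at 2.48 in Cl10 against the control and at -0.86 in Cl1, and KLK6 at -0.80 and 0.26.

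KLK8, a trypsin-like enzyme that KLK5 activates in epidermis, had 672.7 and 687.9 normalized counts in the control, 474.4 and 604.5 in Cl1 and 491.5 and 499.4 in Cl10. All 4 clone libraries lay below both controls, and the clones overlapped each other. The fall in Cl10 was a log2 fold change of -0.44 (standard error 0.0992, edgeR adjusted p = 0.0114), which did not pass without Cl10 replicate 1 or replicate 2 (edgeR adjusted p = 0.115 and 0.091). In Cl1 the value was -0.32 (standard error 0.149, 95% interval -0.64 to 0.0022, edgeR adjusted p = 0.137), and Cl10 against Cl1 was -0.11 (95% interval -0.39 to 0.16, edgeR adjusted p = 0.484), and passed at -0.30 only without Cl1 replicate 1 (edgeR adjusted p = 0.0151).

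KLK11, another trypsin-like member of stratified epithelia, was counted at 116.1 and 127.2 in the control, 42.19 and 58.84 in Cl1 and 77.5 and 81.05 in Cl10 after normalization. The 3 groups did not overlap, and Cl1 was the lowest. Its log2 fold change in Cl1, -1.26 (standard error 0.254, edgeR adjusted p = 0.00334), was the largest fall among the 7 tested members in either clone and passed in all 11 alternative fits. The fall in Cl10 was smaller (-0.60, standard error 0.189, edgeR adjusted p = 0.0393) and did not pass with DESeq2 (DESeq2 adjusted p = 0.158), without control replicate 2 (edgeR adjusted p = 0.0618) or without either Cl10 library (edgeR adjusted p = 0.18 and 0.121). Between the clones the value was 0.67 (95% interval 0.10 to 1.24, edgeR adjusted p = 0.0513) and did not pass here, though it did in 5 of 11 alternative fits.

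KLK10, a member whose expression is lost in many breast cancer lines, was the most abundant. Its normalized counts were 5482.4 and 5757.9 in the control, 4147.3 and 3461.1 in Cl1 and 4785.3 and 4827.2 in Cl10. Both clones lay below the control without overlap, with Cl1 lower than Cl10. The fall in Cl1 was -0.55 on the log2 scale (standard error 0.118, edgeR adjusted p = 0.00498) and did not pass without Cl1 replicate 2 (edgeR adjusted p = 0.149). In Cl10 the value was -0.21 (standard error 0.0792, 95% interval -0.40 to -0.02, edgeR adjusted p = 0.0716), which did not pass. With either control library left out the adjusted p fell under 0.05, but the spread then came from the 2 Cl10 libraries alone, which lay close together, and the lone control library was assumed to vary like them. KLK10 was higher in Cl10 than in Cl1 by 0.34 (standard error 0.072, edgeR adjusted p = 0.00176).

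The other 4 members were at or near the limit of counting. KLK14, a trypsin-like protease of the epidermal cascade, had 20 and 14 raw counts in the control, 15 and 5 in Cl1 and 8 and 12 in Cl10, and its log2 fold changes of -0.72 (95% interval -1.84 to 0.40) and -0.55 (95% interval -1.66 to 0.56) did not pass (edgeR adjusted p = 0.338 and 0.372). KLK12, an activator of other kallikreins in the test tube, had 13 and 3 raw counts in the control, 4 and 6 in Cl1 and 1 and 0 in Cl10. It was too low for the filter. Without the filter it passed as lower in Cl10 (edgeR adjusted p = 0.0451), on a total of 1 read in that clone, and the unadjusted p of DESeq2 was 0.0774. KLK9, a chymotrypsin-like member, had 1 and 4 raw counts in the control, 0 and 1 in Cl1 and 4 in each Cl10 library. KLK13, found in squamous epithelia such as the oesophagus, had 1 raw count in Cl10 replicate 2 and 0 in the other 5 libraries. A library at 0 allows a true count of up to 3, a floor that covers counting error only, and a difference of KLK9 or KLK13 was not detectable at this depth.

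Some of these counts could include or miss reads of other genes, since the strand setting and the gene annotation used for counting are not given in the sources used here. AC011473.4 (ENSG00000269741), a protein-coding gene on the same strand, covers 96.33% of the exon bases of KLK9 and 40.05% of those of KLK8, and KLK8 and KLK9 themselves share 204 bases. A read in such a stretch may have been counted for neither gene. AC011473.4 itself was at -0.96 (log2) in Cl1 (edgeR adjusted p = 0.0317) and 0.12 in Cl10 (edgeR adjusted p = 0.736). On the opposite strand, non-coding RNAs overlap 12.22% of the exon bases of KLK5, 20.29% of KLK6, 6.32% of KLK10 and 9.04% of KLK12. KLK7, KLK11, KLK13 and KLK14 share no exon bases with another annotated gene.

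The order of the members by level was taken per length, as CPM after normalization divided by the kb of merged exon (the RPKM scale). In the control, KLK10 stood at 25.1 and 26.3, or 53.0% and 53.8% of the summed level of the 10 genes. KLK6 followed at 11.3 and 11.2, KLK8 at 6.27 and 6.41, KLK7 at 2.75 and 3.08, KLK5 at 0.924 and 0.895, KLK11 at 0.648 and 0.71 and KLK14 at 0.249 and 0.22. Neighbours in this order did not overlap between the control libraries until KLK12 and KLK9, which did. The order of these 7 genes was the same in Cl1. In Cl10 KLK5 moved from the fifth place to the third, at 4.55 and 5.51, where its range overlapped that of KLK8 (4.58 and 4.65). With the longest transcript as the length in place of merged exons, KLK5 came after KLK11 in the control and in Cl1, and after KLK8 in Cl10.

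The summed level per length was 47.3 and 49.0 in the control, 39.5 and 36.8 in Cl1 and 39.7 and 41.5 in Cl10, so both clones lay below the control without overlap. KLK5 made up 1.95% and 1.83% of it in the control, 1.26% and 1.35% in Cl1 and 11.5% and 13.3% in Cl10. The ratio of KLK5 to its target KLK7 was 0.336 and 0.29 in the control, 0.367 and 0.332 in Cl1 and 2.29 and 3.07 in Cl10. That of KLK5 to KLK6 was 0.0821 and 0.0799 in the control, 0.0362 and 0.0388 in Cl1 and 0.752 and 0.823 in Cl10. KLK5 was below KLK7 in every control and Cl1 library and above it in both of Cl10, on the per-length scale. These shares and ratios are descriptions of RNA levels and were not tested.

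The genes around the stretch were compared in the same fits. Of the 20 nearest tested genes outside the family, 10 on each side, 6 passed as lower and 0 as higher in Cl1, and their log2 fold changes had a median of -0.35, where 12.8% and 12.4% of all genes passed and the median was -0.01. In Cl10, 6 passed as lower and 2 as higher, with a median of -0.40, where 21.8% and 20.6% of all genes passed and the median was again -0.01. The 20 genes were not all the same in the 2 clones, since they were taken among the genes tested in each. Their starts lay up to 1353.866 kb from the 3′ end of KLK5 in Cl1 and up to 2280.67 kb in Cl10. SHANK1 was called lower in both clones (-2.81 and -1.45). LINC01869 (-1.01) and SYT3 (-1.56) were called lower in Cl10. SHANK1 in Cl10 did not pass without control replicate 1 or Cl10 replicate 1 (edgeR adjusted p = 0.0726 and 0.0626), and LINC01869 did not pass with DESeq2 (DESeq2 adjusted p = 0.161), without control replicate 1 (edgeR adjusted p = 0.0913) or without either Cl10 library (edgeR adjusted p = 0.211 and 0.0519). Over the 50 nearest tested genes the median was -0.27 in Cl1 and -0.10 in Cl10. Subtracting the median of each gene's own 50 nearest left KLK7 at -0.74 and KLK11 at -0.99 in Cl1, both then under the fold-change threshold, and turned KLK8 in Cl1 to -0.05. It put KLK10 at -0.27 in Cl1 and at 0.11 between the clones, and KLK7 between the clones at 0.21. KLK5 in Cl10 was at 2.57 and KLK6 at -0.70 after the same subtraction. In Cl1 it put KLK5 at -0.59 and KLK6 at 0.52, and in Cl10 KLK8 at -0.34 and KLK11 at -0.50. These are values with no test. KLK1, which lies apart from the stretch on its KLK5 side and encodes the tissue kallikrein that releases kinins, had 195.5 and 186.5 normalized counts in the control, 47.35 and 59.99 in Cl1 and 70.63 and 54.83 in Cl10. It was called lower in both clones (log2 fold changes -1.83 and -1.58, edgeR adjusted p = 0.000113 and 0.000984). Of the other kallikreins listed (KLK2, KLK3, KLK4, KLK15 and the plasma kallikrein KLKB1), KLK15 alone was tested, only in Cl1, and did not pass.

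The 4 gene lists that follow are set against all genes tested, of which 12.4% passed as higher and 12.8% as lower in Cl1 and 20.6% and 21.8% in Cl10, with medians of -0.01 in both. Each fit with a library left out applied the filter on low counts anew. List medians from such fits can therefore rest on other listed genes than the main ones. Of 11 listed proteases of epidermis that activate others or are themselves activated, here called upstream proteases, 7 were tested in each clone. In Cl1, 4 passed as higher and 0 as lower, with a median of 0.93, and in Cl10, 3 passed as higher and 1 as lower, with a median of 0.30 that was 0.46 without control replicate 2 and 0.62 without Cl10 replicate 2. PRSS8 encodes prostasin, a membrane-anchored protease of the epidermal barrier. It had 175.9 and 190.9 normalized counts in the control, 1240.6 and 1227.5 in Cl1 and 385.5 and 413.6 in Cl10, and the groups did not overlap. It was called higher in Cl1 (log2 fold change 2.77, standard error 0.138, edgeR adjusted p = 1.12e-07) and in Cl10 (1.14, standard error 0.132, edgeR adjusted p = 0.000771). TMPRSS13, another membrane protease, was called higher in both (1.86 and 1.02), in Cl10 at 0.99 and under the threshold without control replicate 1 and at 0.93 without Cl10 replicate 2. ST14, encoding matriptase, which activates prostasin, rose in both below the fold-change threshold (0.93 and 0.30, edgeR adjusted p = 0.000115 and 0.0194), and its rise in Cl10 did not pass without either Cl10 library (edgeR adjusted p = 0.263 and 0.266). TMPRSS11E rose in Cl1 (0.82, edgeR adjusted p = 0.00234) and was at 0.01 in Cl10. PLAU, the urokinase gene, fell in Cl10 (-0.88, edgeR adjusted p = 0.000346) and was at -0.24 in Cl1, which did not pass.

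Of 16 listed protease inhibitors, 8 were tested. In Cl1, 5 passed as higher and 0 as lower, with a median of 0.60, and in Cl10, 5 passed as higher and 1 as lower, with a median of 0.71. That median was 1.79 without control replicate 1, 1.32 without control replicate 2 and 1.24 without Cl10 replicate 2. The filter on low counts was applied anew in these fits, so the inhibitors behind these medians can differ from the 8. SPINK5, the LEKTI gene, had 786.2 and 719.2 normalized counts in the control, 813.6 and 833.0 in Cl1 and 896.6 and 880.8 in Cl10. Its clone libraries lay above both controls, but 0.14 and 0.26 did not pass (edgeR adjusted p = 0.433 and 0.0679). SPINK6, a kallikrein inhibitor of the same family, had 28.17 and 35.58 in the control, 150.7 and 95.76 in Cl1 and 399.3 and 410.0 in Cl10. It was called higher in Cl1 (1.98, standard error 0.294, edgeR adjusted p = 0.000459) and in Cl10 (3.69, standard error 0.182, edgeR adjusted p = 4.59e-05), so the clone with the highest KLK5 also had the highest SPINK6. PI3, encoding the elastase inhibitor elafin, rose by 0.61 in Cl1 and was called at 2.27 in Cl10. SLPI, encoding a secreted inhibitor of leukocyte proteases, rose by 0.71 in Cl1 and was called at 2.08 in Cl10. The small rise of PI3 in Cl1 did not pass with DESeq2, with library size only or without Cl1 replicate 1 (adjusted p = 0.0826, 0.0573 and 0.315 from DESeq2 and edgeR). A2ML1, a broad protease inhibitor of stratified epithelia, was called in both, at 2.77 and 1.10. The Cl10 value of A2ML1 failed with DESeq2 (DESeq2 adjusted p = 0.0622) or without Cl10 replicate 1 (edgeR adjusted p = 0.0956), and it was at 0.75 and no call without control replicate 2. SPINT2, an inhibitor of matriptase and prostasin, rose by 0.59 and 0.31, and WFDC2, an inhibitor-like secreted protein gene, fell in Cl10 (-0.41, edgeR adjusted p = 0.0134) and was at 0.02 in Cl1, which did not pass. Leaving out either library of a clone ended the results of SPINT2 in that clone and of WFDC2 in Cl10 (edgeR adjusted p from 0.063 to 0.33).

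The list called substrates also held other genes of desmosomes and signalling, such as the plaque genes PKP1, DSP and JUP. Of its 13 genes, 11 were tested in Cl1, where 5 passed as higher and 1 as lower (median 0.37). In Cl10, 9 were tested, where 3 passed as higher and 0 as lower (median 0.16). DSG1, a desmosomal cadherin that KLK5 can cut, was at -0.15 and -0.17 and did not pass, and CDSN, encoding corneodesmosin, was too low to be tested. DSC1, a desmosomal cadherin of the upper epidermis, was called higher in Cl1 on low counts (5.976 and 1.078 normalized counts in the control, 19.8 and 25.38 in Cl1) and was not tested in Cl10. The plaque genes PKP1 (0.98), DSP (0.65) and JUP (0.43) rose in Cl1, and in Cl10 they were at -0.14, 0.05 and 0.21 and did not pass. F2RL1 encodes PAR2, the receptor through which KLK5 signals, and it rose in Cl10 (0.78, edgeR adjusted p = 0.000484) and was at 0.30 in Cl1, which did not pass. F2R, encoding the thrombin receptor PAR1, fell in Cl1 (-0.46, edgeR adjusted p = 0.00962) and rose in Cl10 (0.55, edgeR adjusted p = 0.00313). FLG, which encodes filaggrin, was called higher in both clones. The results of JUP and F2R in Cl1 did not pass without either Cl1 library, nor DSP without Cl1 replicate 1 or F2R in Cl10 without Cl10 replicate 2 (edgeR adjusted p from 0.0626 to 0.312). The median of the substrates in Cl10 was -0.11 without control replicate 2, 0.33 without control replicate 1 and 0.085 without Cl10 replicate 2.

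Among 12 other proteases of desquamation and cornification, 12 were tested in Cl1, with 5 higher and 2 lower (median 0.21), and 11 in Cl10, with 5 higher and 1 lower (median 0.26, and 0.41 without control replicate 2). CASP14, the caspase of cornifying keratinocytes, was called higher in Cl1, at 90.4 and 99.22 normalized counts against 3.415 and 0.0 in the control. It was not tested in Cl10 (9.81 and 11.92). The lysosomal protease gene CTSH was called higher in Cl1 (1.02) and rose by 0.37 in Cl10. CTSV, whose protease is also active in epidermis, rose in Cl10 (0.92) and was at 0.24 in Cl1, which did not pass. CTSL fell in both (-0.38 and -0.51). Without control replicate 1 CTSH in Cl1 was at 0.89 and without Cl1 replicate 2 at 0.97, both under the threshold of a call, and CTSH in Cl10 and CTSL in either clone did not pass without either library of that clone (edgeR adjusted p from 0.069 to 0.27).

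**Figure D2:**
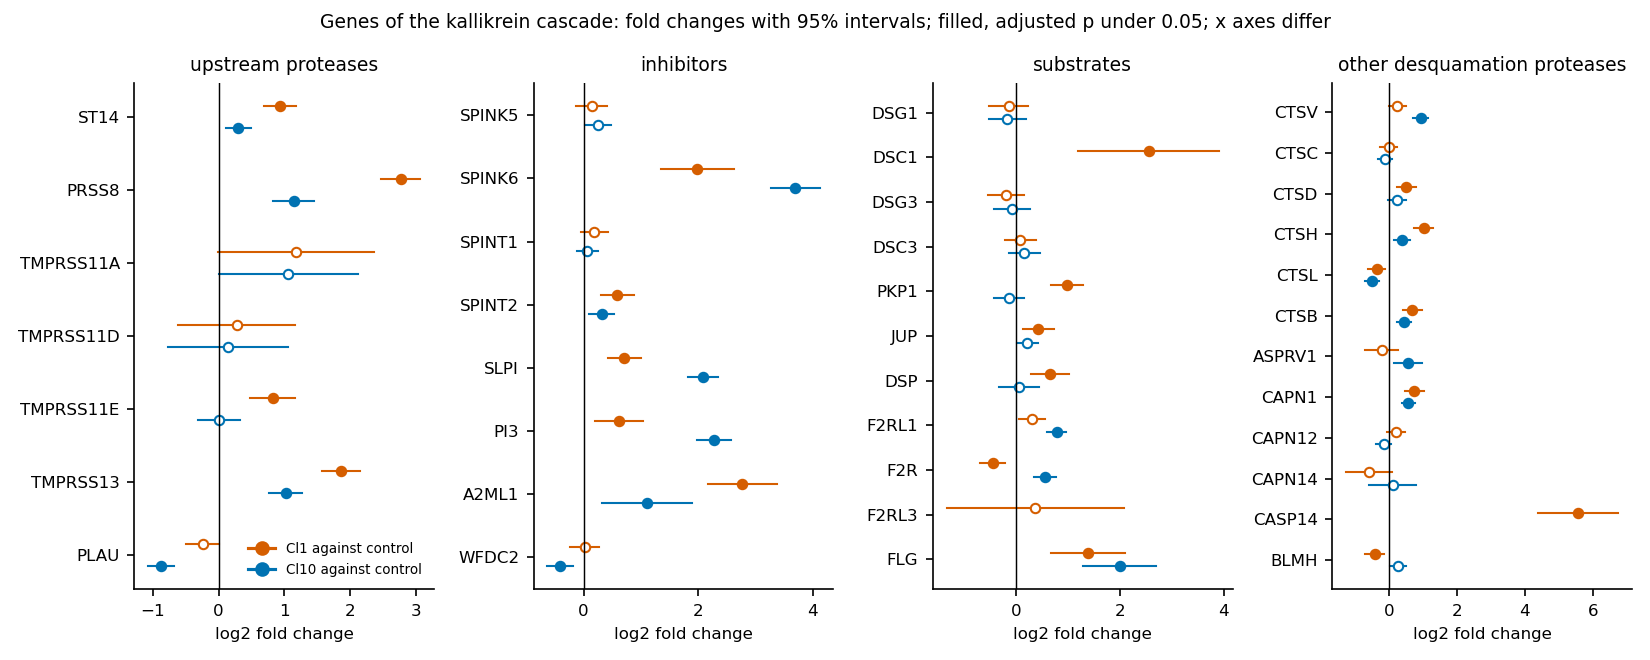
Log2 fold changes (x axis, scale differs between panels) of the tested genes of 4 lists in Cl1 and Cl10 against the control, with 95% intervals as bars and filled points where the adjusted p is under 0.05. SPINK6, PI3 and SLPI lie farther to the right in Cl10, and PRSS8, TMPRSS13 and A2ML1 in Cl1.

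The pattern of KLK5 across the 6 libraries was compared with that of 11651 genes outside the family at a mean of 5 CPM or more, as the root mean square difference of centred log2 CPM. The nearest were SLC43A3 (0.255), RAMP1 (0.301), NCAM1 (0.355), MMP1 (0.36) and SHISAL1 (0.525). SLC43A3 had 219.4 and 289.0 normalized counts in the control, 187.7 and 139.6 in Cl1 and 1149.7 and 1208.6 in Cl10. MMP1, the interstitial collagenase gene, had 324.4 and 327.8, then 270.3 and 353.0, then 2013.0 and 1953.5. Both were high in Cl10 alone, as KLK5 was, but the Cl1 and control ranges of MMP1 overlapped. For KLK7 the nearest were AMDHD1 (0.0461), PPM1N (0.0651), KYAT1 (0.0719), FZD10 (0.0832) and NYAP1 (0.093). The genes were picked for likeness in these same libraries.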

How the data were processed

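Per the study's methods, the authors sequenced poly(A)-selected, paired-end libraries, used HISAT2 for alignment to hg38 and HTSeq for the counts of each gene. The submitters' processing notes also name StringTie and DESeq. The library kit is given differently in the labels and the methods, and the annotation, strand setting and tool versions are not given in the sources used here. The deposited values are raw counts for 58735 genes in 6 libraries, without normalization. Columns were matched to samples by name, the control columns through the letter T for tomato and their place in the table of the DUSP1 clones. Another 4 of the 10 samples were not analysed here.

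Each comparison was fitted with edgeR 4.0.16 in R 4.3.3 (filterByExpr, TMM, estimateDisp, glmQLFit, glmQLFTest) on its own 4 libraries, with Benjamini-Hochberg adjustment over all genes tested. Each standard error is the unshrunk log2 fold change over the root of its F statistic, and 95% intervals use the fit's t distribution. DESeq2 1.42.0 was an alternative. Coordinates and exon lengths come from GENCODE release 44, which holds 58207 of the identifiers. Only bases before a RefSeq start were searched for motifs. All 10 members, DUSP1, every listed gene called in a clone and the 5 genes nearest in pattern to KLK5 and to KLK7 were named by rule. SHANK1, LINC01869, SYT3 and AC011473.4, and the listed genes that were not called, were chosen after their values were seen. The members and the gene lists were chosen with earlier results of these data known, so counts over them are descriptions.

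On simulated counts with 4-fold changes the fit recovered 187 of 196 tested genes for Cl1 against the control, 191 of 198 for Cl10 against the control and 193 of 198 for Cl10 against Cl1, and called 2, 1 and 4 unchanged genes. Smaller changes were not simulated, so these recovery counts do not apply to the members' changes below 4-fold. The simulated counts gave each gene the typical variance for its level, with no genes that vary more. Recovery and false calls may therefore look better than in the real libraries. Libraries of a group differed by more than counting noise, with a chi-square p under 0.05 for 58.5% of 15278 genes in the control, 47.3% of 15213 in Cl1 and 23.6% of 14925 in Cl10. Expected counts came from library totals without TMM factors, so a difference in scaling between the libraries can add to these shares. Alternatives in normalization, filter, tool, threshold, design, left-out libraries, regional shift and gene length were tried. Listed genes and neighbours were followed through the same fits after the data were seen.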

Additional observations from a re-analysis of the deposited data

Results flagged for a closer look

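A gene was singled out where its change against the control differed between the clones, by the direct fit of Cl10 against Cl1 with edgeR's quasi-likelihood test, under the same limits as a call. Among the members these were KLK5, with a log2 fold change of Cl10 against Cl1 of 3.34 (standard error 0.174, edgeR adjusted p = 2.72e-08), and KLK6, with -1.06 (standard error 0.083, edgeR adjusted p = 6.23e-07). Among the listed inhibitors, SPINK6 (1.70), PI3 (1.65) and SLPI (1.37) were higher in Cl10, and A2ML1 (-1.67) was lower. The protease gene PRSS8 was lower in Cl10 (-1.63), as were CASP14 (-3.12), DSC1 (-2.52) and PKP1 (-1.12), and the receptor gene F2R was higher (1.00, and under the threshold at 0.99 without Cl1 replicate 2 and at 0.95 without Cl10 replicate 2). With 2 libraries a group, no library could be tested as standing apart from its group.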

How the results depend on the processing

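KLK5 and KLK6 in Cl10, KLK7 and KLK11 in Cl1, and KLK5, KLK6 and KLK10 between the clones passed in all 11 alternative fits that give a p. So did KLK1 in both clones and DUSP1 in Cl1. The other member results that passed were lost in 1 to 4 of them, as given beside each, and DUSP1 was lost in Cl10 without Cl10 replicate 2 (-0.48, edgeR adjusted p = 0.0794) and between the clones without Cl10 replicate 1 (0.35, edgeR adjusted p = 0.111). Without a fold-change threshold, 4 members were lower in Cl1, 4 lower in Cl10 and 3 higher in Cl10 against Cl1, and all genes higher and lower numbered 2489 and 2575, 4103 and 4336, and 4932 and 4774. DUSP1 then also counted as called in Cl10 (-0.59) and between the clones (0.48). Without a filter 1 member, KLK12, was called lower in Cl10, and with library size only 0 members were called lower in Cl10 than in Cl1, KLK6 passing under the fold-change threshold.

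Leaving out 1 library moved the members called lower in Cl1 between 1 (without control replicate 2 or Cl1 replicate 1) and 2, and those called lower between the clones between 0 (without Cl10 replicate 1) and 1. For DUSP1 in Cl1 it gave -1.18 to -0.96. KLK8 between the clones ran from -0.30 (without Cl1 replicate 1, where it passed) to 0.072 (without Cl1 replicate 2), and KLK14, which passed nowhere, from -0.29 (without Cl10 replicate 2, and -0.23 without Cl1 replicate 2) to 0.88 (without Cl1 replicate 1). The cause was not tested. The median of the 20 neighbours in Cl1 ran from -0.43 to -0.29. List medians ran, for upstream proteases, from 0.66 to 1.18 in Cl1 and 0.30 to 0.62 in Cl10, for inhibitors in Cl10 from 0.63 to 1.79, for substrates in Cl10 from -0.11 to 0.33, and for other proteases from 0.17 to 0.25 in Cl1 and 0.28 to 0.41 in Cl10. The filter was applied anew in each of these fits, so the listed genes tested can differ between them. A change of the gene set and a change of the values were not separated.

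Without a filter the medians were 0.59 for upstream proteases in Cl1, 0.19 for those in Cl10 and 1.09 for inhibitors in Cl10, with DESeq2 0.74, 0.24 and 1.13, with at least 10 counts in every library 0.22 for upstream proteases in Cl10, and with library size only 0.14 for other proteases in Cl1. Subtracting the local median put DUSP1 at -0.79 in Cl1 and 0.11 between the clones. With transcript length, KLK5 ranked 6 and KLK11 ranked 5 in the control and in Cl1, and KLK5 ranked 4 and KLK8 ranked 3 in Cl10.

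Over all genes kept by the filter, libraries with the same replicate number showed little sign of pairing (correlations of deviations between groups -0.069, -0.0162 and 0.00811 over 20638 genes). A pairing that touches few genes would not show in these correlations. With the replicate number as a block, 1587, 2857 and 2163 genes were called in place of 1520, 2667 and 2131, the members called numbered 2, 1 and 2 as before, and KLK11 between the clones passed (edgeR adjusted p = 0.04). Among the listed genes compared with the control, the block ended the results of JUP (edgeR adjusted p = 0.132) and CTSL (edgeR adjusted p = 0.0875) in Cl1 and of SPINT2 in Cl10 (edgeR adjusted p = 0.0887). With 2 libraries a group and few reads, changes in KLK9 and KLK13 could not be resolved.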
